A study of Mus musculus with 6 samples.

Results

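Transcripts of 48 genes of DNA damage repair were followed in 4T1, a cell line from a mouse mammary carcinoma, with and without exposure to particles and near-infrared light. The genes were taken as a list of symbols and matched to the identifiers of the deposited files through GENCODE M21, and all 48 were found among the 56748 genes. They cover homologous recombination (11 genes), the MRE11-RAD50-NBS1 complex that senses broken ends (3), the Fanconi pathway (6), checkpoint kinases (4), mismatch repair (3), base excision and single-strand break repair (9), nucleotide excision repair (7) and end joining (5). The control group was 3 samples of wild-type 4T1 cells collected at 48 h. The treated group was 3 samples of the same line that received Au/MoS2/Bi2S3, a particle of gold, molybdenum disulfide and bismuth sulfide, followed by near-infrared (NIR) light. Per the labels' protocols these cells grew for 24 h, took up 125 µg/mL of particles overnight, were irradiated for 8 min and were collected after 24 h more. Cells given particles alone or light alone were not analysed here, so the parts of the treatment cannot be told apart. Both groups carry the same batch label and the time of 48 h. The labels repeat this protocol for the controls and do not say whether those were illuminated. The series' design text speaks of RNA pooled from the cells of 3 individuals, and neither it nor the labels state if the samples of 1 group are separate cultures. Each p-value thus speaks for the spread among these 6 samples, possibly a technical one. Where values are listed per library they run in replicate order, 1 to 3, and a mean is given ± SD (n = 3).

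Each form of DNA damage has its own repair route. Broken ends are recognised by the MRN complex or by Ku; homologous recombination copies the sister chromatid with the help of BRCA1, PALB2 and BRCA2, whereas end joining ligates the ends directly through DNA-PK and ligase IV. The Fanconi pathway unhooks interstrand crosslinks, base excision removes oxidised or deaminated bases such as 8-oxoguanine, nucleotide excision cuts out bulky lesions, and mismatch repair corrects replication errors. The kinases ATM and ATR signal damage to CHK2 and CHK1, which hold the cell cycle. Many genes of recombination and crosslink repair are transcribed mainly in S and G2 phase, under E2F factors.

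Values are FPKM, fragments per kilobase of transcript scaled to depth, as deposited. Depth worked back from these values was between 32.6 and 38.1 M reads at genes per library. The deposited values had been scaled so that the typical gene was level between libraries, and a gene is read here as higher or lower relative to it. Scaling to total reads instead (library-size scaling) put the median log2 fold change of all genes tested at 0.60. Differences were tested with limma on log2(FPKM + 1) over the 11118 genes that reached 1 FPKM in 3 or more of the 6 libraries, and a gene was called at a Benjamini-Hochberg adjusted p under 0.05 over all of them. Of 5 carcinoma markers, the 3 tested fell, Krt18 from 861 ± 109 to 286 ± 12.5 FPKM, Krt8 from 480 ± 12.6 to 351 ± 7.45 and Epcam from 4.99 ± 0.673 to 0.896 ± 0.117, and Krt7 and Cdh1 were at or near 0. Under library-size scaling Krt18 and Epcam were called lower, and Krt8 had a log2 fold change of 0.30 and was not called. With quantile normalization Krt8 was called higher (0.76, limma adjusted p = 0.0038), Krt18 was not called (-0.30) and Epcam was called lower (-1.97). The same held after a trend of fold change on GC content, length and level was taken out (0.78, -0.21 and -1.88). Of 5 macrophage markers, Ptprc and Adgre1 were at or near 0, Cd68 stood at 77.0 to 444 FPKM and Cd14 at 2.90 to 5.32 with overlapping groups, and Csf1r was higher in every treated library (0.0347 ± 0.0424 against 0.245 ± 0.0557 FPKM, called only without the filter). Of 5 fibroblast markers, Col1a2, Dcn and Thy1 were at or near 0, although Col1a1 stood at 112 to 754 FPKM in controls and 28.8 to 31.1 in treated cells. The summed level of the macrophage list was 81.6 to 447 FPKM in controls and 246 to 264 in treated cells, that of the fibroblast list 114 to 755 and 30.1 to 32.3, and that of 3 endothelial markers 0.744 to 1.16 and 1.17 to 1.73; their part in the results below was not tested. In bulk RNA, fewer cells that express a gene and less RNA per cell cannot be told apart. Control replicates varied more than treated ones, with a median SD of 0.21 against 0.06 on the log2 scale for the tested repair genes, and control 3 was the lowest control for 25 of the 48 genes.

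With the values scaled as deposited, more repair genes rose than fell in treated cells, a balance that changed with the processing. Of the 48 genes, 38 passed the filter; 15 rose, 4 fell and 19 were not called, and 56.1% of all genes tested were called in either direction. The 15 that rose make 39.5% of those tested, beside 27.9% of all genes tested, and the 4 that fell make 10.5%, beside 28.3%. The median log2 fold change was 0.27 over the 38 genes and -0.01 over all genes tested. Of the 38, 11 reached 1 FPKM in all treated but not in all control libraries, and for 5 of them (Rad54b, Fanci, Brip1, Ddb2 and Prkdc) no control library reached it, so these 5 could enter the test only by being higher in treated cells. Without the filter all 48 were tested; 16 were then called higher and 3 lower (33.3% and 6.25%), beside 14.7% and 9.8% (24.5% together) of 27756 genes. Every treated library lay above every control for 28 of the 48 genes and below for 5, or 58.3% and 10.4%, beside 24.4% and 15.9% (40.3% together) of those 27756 genes. Under library-size scaling 29 of the 38 were called higher and 1 lower, beside 54.3% and 10.3% (64.6% together) of all genes tested. After a trend of fold change on GC content, transcript length and level, shared by all genes, was taken out (detrending), 6 of the 38 were called higher and 6 lower (15.8% each), beside 20.2% and 25.4% of all genes tested.

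The members that rose came from every pathway except mismatch repair, where 2 of 3 genes were tested. Brca1, Rad54b and Bard1 rose in homologous recombination, Rad50 among the sensors, Brip1, Fanci and Fancd2 in the Fanconi pathway, Chek2 and Atm among the kinases, Ogg1 and Parp2 in base excision, Xpc and Ddb2 in nucleotide excision, and Xrcc5 and Prkdc in end joining. Xpa and Ddb1 fell in nucleotide excision, Ung in base excision and Msh6 in mismatch repair. Over the 16 alternatives of processing and sample choice, 6 of the 19 calls stood in every alternative that tested the gene: Brca1, Rad50, Ogg1, Xpc and Xrcc5 as higher and Xpa as lower. The plot of fold changes by pathway shows the 38 tested genes.

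**Figure D1:**
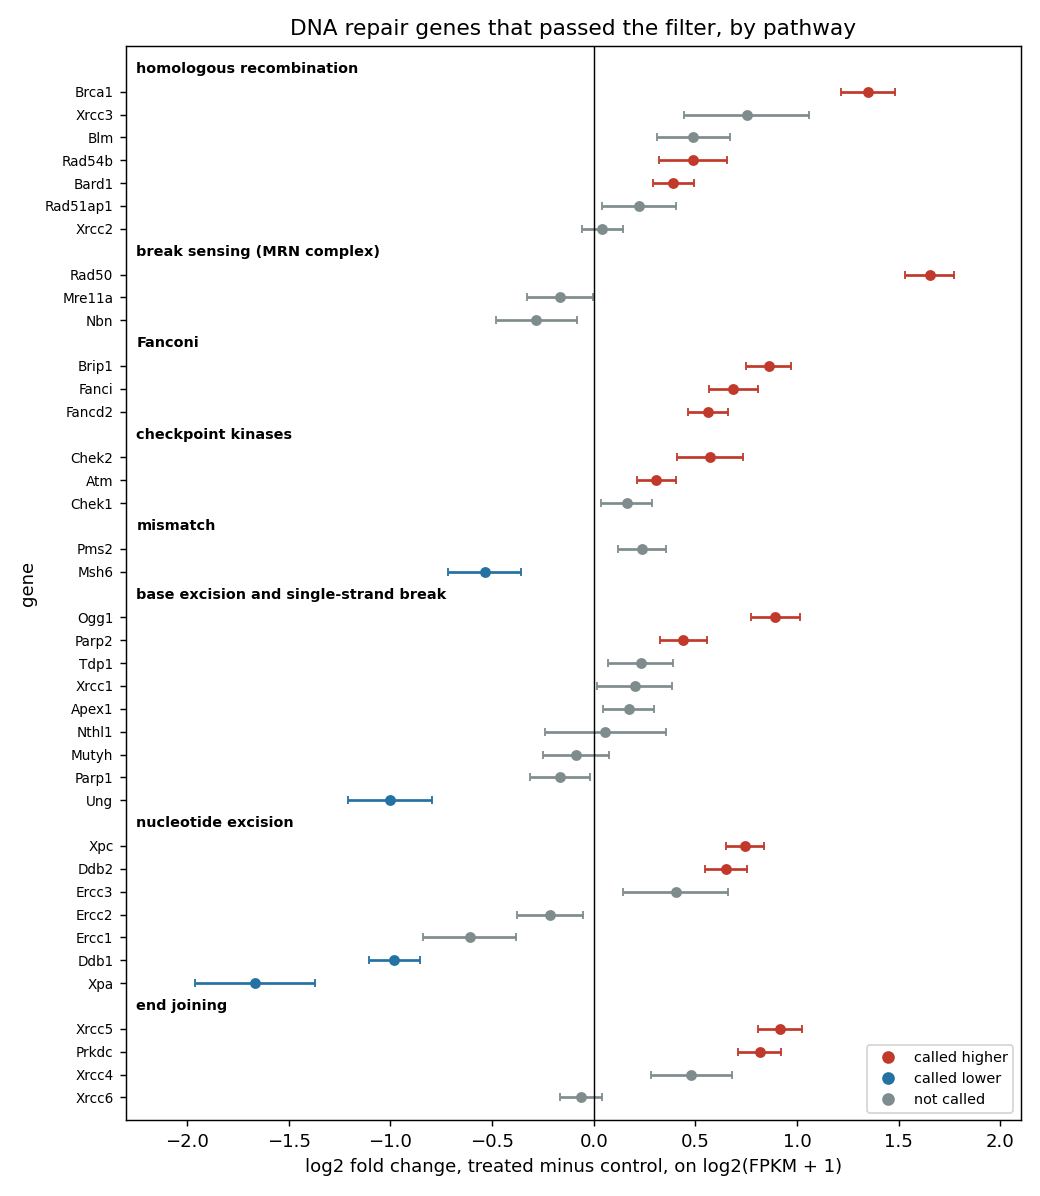
Log2 fold change (treated minus control, on log2(FPKM + 1)) of the 38 tested repair genes, grouped by pathway; points are limma estimates from 3 against 3 samples and bars their standard errors. Red marks the 15 genes called higher, blue the 4 called lower and grey the 19 not called; Rad50 lies farthest right at 1.65 and Xpa farthest left at -1.67.

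Promoters are shown because several members moved together and E2F sites are a known feature of this gene class. RefSeq promoters on GRCm38.p6, from 250 bases before to 50 after the start, were matched for 38 of the 48 genes (41 promoters); Rad54b, Xrcc2, Exo1, Rad50, Nbn, Fancd2, Xpc, Ddb2, Ercc3 and Prkdc had none in the table. An E2F motif (TTTCCCGC, TTTCGCGC, TTTGCCGC or TTTGGCGC, either strand) was found in 7 of the 41 promoters (17.1%), beside 2.26% of 32851 promoters of the same length. A CCAAT box, on either strand, stood in 63.4% against 37.4%, a GC box (GGGCGG) in 75.6% against 35.7%, and the cell-cycle element TTTGAA in 4.88% against 17.9%; an E2F motif and a GC box can share bases. The 7 promoters with an E2F motif belonged to 2 genes called higher (Bard1 and Chek2), 1 called lower (Msh6), 2 not called (Nthl1 and Xrcc6) and 2 below the filter (Brca2 and Msh3). The motif stood in 2 of 9 promoters of genes called higher and 1 of 4 of genes called lower. It stood in 2 of 17 promoters of genes not called and 2 of 11 of genes below the filter. Of the genes without a promoter, Rad54b, Rad50, Fancd2, Xpc, Ddb2 and Prkdc were called higher. The motif was thus found on both sides of the call, and a link between motif and call was not tested. The promoters of Brca1 at chr11:101551906-101552205 (minus strand), Bard1 at chr1:71102923-71103222 (minus strand), Chek2 at chr5:110839733-110840032 (plus strand), Brca2 at chr5:150522371-150522670 (plus strand) and Msh6 at chr17:87974800-87975099 (plus strand) run 5′ to 3′ along the gene, with E2F motifs and CCAAT boxes in capitals.
Brca1: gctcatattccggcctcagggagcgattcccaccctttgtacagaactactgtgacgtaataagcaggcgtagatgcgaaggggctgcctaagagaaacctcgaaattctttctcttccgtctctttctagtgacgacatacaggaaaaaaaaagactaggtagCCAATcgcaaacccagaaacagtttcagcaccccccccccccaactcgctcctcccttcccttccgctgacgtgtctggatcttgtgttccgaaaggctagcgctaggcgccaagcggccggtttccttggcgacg
Bard1: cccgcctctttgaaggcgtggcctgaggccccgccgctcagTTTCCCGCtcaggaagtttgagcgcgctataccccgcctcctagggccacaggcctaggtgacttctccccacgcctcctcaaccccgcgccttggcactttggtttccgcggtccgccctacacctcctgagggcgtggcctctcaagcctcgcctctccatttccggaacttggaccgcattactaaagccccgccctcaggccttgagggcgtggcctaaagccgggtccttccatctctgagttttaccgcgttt
Chek2: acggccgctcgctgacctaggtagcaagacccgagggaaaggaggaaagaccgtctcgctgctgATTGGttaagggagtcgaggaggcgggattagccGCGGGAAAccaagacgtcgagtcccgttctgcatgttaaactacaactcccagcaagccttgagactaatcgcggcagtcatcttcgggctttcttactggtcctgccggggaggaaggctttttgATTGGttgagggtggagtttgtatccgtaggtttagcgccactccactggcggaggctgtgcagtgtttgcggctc
Brca2: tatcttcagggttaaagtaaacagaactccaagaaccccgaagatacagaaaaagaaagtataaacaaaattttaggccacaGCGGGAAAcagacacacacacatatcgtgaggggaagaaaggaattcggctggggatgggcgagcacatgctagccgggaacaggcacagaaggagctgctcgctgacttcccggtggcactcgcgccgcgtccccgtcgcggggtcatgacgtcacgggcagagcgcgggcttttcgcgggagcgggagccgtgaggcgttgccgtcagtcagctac
Msh6: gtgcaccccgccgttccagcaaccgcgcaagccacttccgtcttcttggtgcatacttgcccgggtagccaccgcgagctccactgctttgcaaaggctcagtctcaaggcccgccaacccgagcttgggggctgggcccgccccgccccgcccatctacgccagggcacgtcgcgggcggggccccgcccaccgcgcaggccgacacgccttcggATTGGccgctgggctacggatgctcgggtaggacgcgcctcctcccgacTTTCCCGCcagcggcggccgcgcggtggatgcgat
The Brca1 promoter holds a CCAAT box and none of the 4 E2F words, and the Msh6 motif begins 15 bases after the start site. A match is a string of letters, not a measured site.

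Of 7 recombination genes tested 3 rose and 0 fell (42.9% and 0%), beside 27.9% and 28.3% of all genes tested. For 8 of the 11 listed (72.7%) every treated library lay above every control, beside 24.4% of the 27756 genes tested without the filter. Brca1 (ENSMUSG00000017146, chromosome 11) encodes the ubiquitin ligase and scaffold that starts the pathway. It stood at 1.97, 2.06 and 1.33 FPKM in controls and at 5.85, 6.19 and 6.07 in treated cells. The treated libraries lay close together and all lay well above the controls, a 3.39-fold rise (log2 fold change 1.35 ± 0.13 SE, limma adjusted p = 0.000598). Bard1, its obligate partner, rose from 1.04, 1.47 and 1.21 FPKM to 1.95, 1.91 and 1.94 (1.56-fold, log2 fold change 0.39 ± 0.10 SE, limma adjusted p = 0.0181). Rad54b, a DNA translocase of the pathway, rose from 0.733 ± 0.357 to 1.39 ± 0.0612 FPKM (SD, n = 3, limma adjusted p = 0.0455); 35.8% of its exon length is shared with Fsbp on the same strand, so its values are uncertain. Over genes of a similar level, the median log2 fold change was 0.27 for the decile of genes by level that holds Brca1, 0.30 for that of Bard1 and 0.52 for that of Rad54b. After detrending the log2 fold change of Brca1 was 0.93 (limma adjusted p = 0.00224), while those of Bard1 and Rad54b were -0.09 and -0.15 and neither was called. The calls of Bard1 and Rad54b stood in 5 of the 15 alternatives that tested each; both were lost without the filter and without any one treated library, and that of Bard1 also without control 1.

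Brca2, Palb2 and Exo1 were below the filter, with few reads in controls. Brca2, which loads the recombinase on single-stranded DNA, had 39, 20 and 19 reads in controls and 372, 283 and 357 in treated cells. Palb2, which bridges BRCA1 and BRCA2, had 33, 47 and 6 reads in controls and 209, 227 and 293 in treated cells. Exo1, the nuclease that resects ends, had 42, 27 and 13 against 352, 451 and 407. For all 3 the groups did not overlap, and the mean FPKM was 8.46-fold, 5.88-fold and 9.91-fold higher. Without the filter they were called higher (limma adjusted p = 0.00303, 0.00866 and 0.00285). Among 719 protein-coding genes outside the test at the same mean level (0.311 to 0.659 FPKM), the median fold was 1.87 and 53.0% lay above every control, against a median of 2.40 and 80% for the 10 repair genes below the filter.

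The other recombination genes were not called. Blm, the helicase that dissolves joint molecules, stood at 1.39, 1.33 and 0.554 FPKM in controls and 1.98, 1.81 and 1.86 in treated cells (limma adjusted p = 0.058), and without control 3 it was called higher (log2 fold change 0.29, limma adjusted p = 0.019). Xrcc3, a recombinase paralogue, had 95, 97 and 0 reads in controls and 245, 171 and 239 in treated cells (limma adjusted p = 0.0789); the 0 in control 3 allows up to 0.0466 FPKM (3 reads, counting error only). Without control 3 Xrcc3 was also called, at a log2 fold change of 0.39 instead of 0.75 (limma adjusted p = 0.031). Xrcc2, its relative, had group means of 1.80 ± 0.107 and 1.89 ± 0.252 FPKM, and Rad51ap1, which helps strand invasion, 1.78 ± 0.617 and 2.19 ± 0.226. Rad54l, a second translocase, was below the filter at 0.471 ± 0.138 and 0.762 ± 0.145 FPKM.

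Within the MRN complex Rad50 rose, and Mre11a and Nbn were not called. Rad50 (ENSMUSG00000020380, chromosome 11), the ATPase that tethers broken ends, stood at 3.10, 3.96 and 3.88 FPKM in controls and at 13.5, 12.8 and 14.5 in treated cells. Its groups were far apart and it had the largest log2 fold change on the log2(FPKM + 1) scale of the 38 tested members (3.72-fold, log2 fold change 1.65 ± 0.12 SE, limma adjusted p = 0.000295), resting on 489 to 675 reads in controls and 3031 to 3446 in treated cells. Its decile of level had a median log2 fold change of -0.02. Mre11a, the nuclease of the complex, stood at 7.87, 8.70 and 5.60 FPKM in controls and 6.38, 6.48 and 6.32 in treated cells (limma adjusted p = 0.418). Nbn, the subunit that recruits ATM, stood at 9.75, 9.25 and 5.74 and at 6.08, 6.20 and 7.09 (limma adjusted p = 0.265). For both the treated values lay among the controls. Without control 3, which held the lowest value of both, Mre11a and Nbn were called lower (log2 fold change -0.33 and -0.50, limma adjusted p = 0.014 and 0.0053). Under library-size scaling their log2 fold changes were 0.49 and 0.37 and neither was called.

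Ratios between partner genes do not depend on how libraries are scaled against each other, and 8 such ratios were computed within each library for pairs chosen after their values were seen. Rad50 over Mre11a was 0.394, 0.455 and 0.693 in controls and 2.12, 1.97 and 2.29 in treated cells. Rad50 over Nbn likewise moved from 0.318, 0.428 and 0.676 to 2.22, 2.06 and 2.04. The order of the subunit transcripts per length thus turned over, with Rad50 the lowest of the 3 in each control library and the highest in each treated one. Mre11a over Nbn stayed between 0.807 and 1.049 in all 6 libraries, with overlapping groups (two-sided exact permutation p = 0.3). For each of the other 7 ratios the groups did not overlap and the two-sided exact permutation p was 0.1, the smallest that 3 against 3 samples allow (0.114 adjusted over the 8). Because the pairs were chosen on seen values, the count of 7 and these p-values are descriptive only. The share of other gene pairs that do not overlap was not computed.

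**Figure D2:**
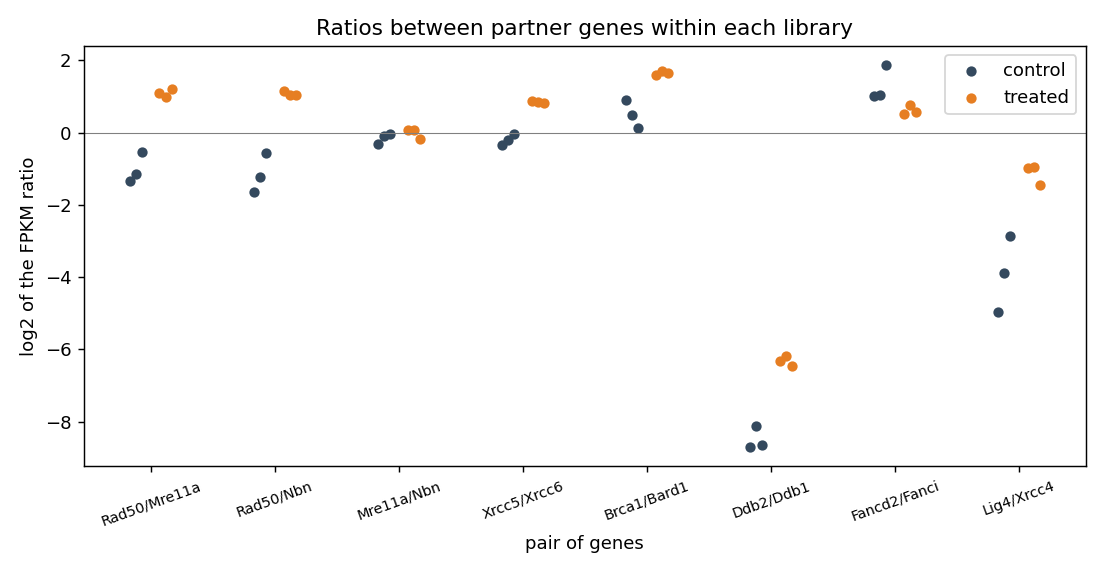
Log2 of the FPKM ratio of 8 pairs of partner genes, 1 point per library (dark, 3 control libraries; orange, 3 treated libraries). Rad50 over Mre11a and over Nbn lies below 0 in all controls and above 0 in all treated libraries, whereas the groups of Mre11a over Nbn overlap.

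In the Fanconi pathway the 3 genes that passed the filter rose, from low levels. Brip1, the helicase bound to BRCA1, stood at 0.262, 0.385 and 0.114 FPKM in controls and at 1.10, 1.36 and 1.36 in treated cells (5.01-fold, log2 fold change 0.86 ± 0.11 SE, limma adjusted p = 0.00144). Fanci stood at 0.631, 0.475 and 0.251 FPKM and at 1.43, 1.21 and 1.34 (2.93-fold, log2 fold change 0.69 ± 0.12 SE, limma adjusted p = 0.00417); 921 of its 5774 exon bases lie over Polg on the other strand. The groups of both were apart, with control 3 the lowest library. Fancd2, which is ubiquitinated together with FANCI on damaged chromatin, rose from 1.06 ± 0.187 to 2.02 ± 0.0238 FPKM (SD, n = 3, limma adjusted p = 0.00429). Brip1 and Fanci passed the filter only through treated libraries. Fancd2 reached 1 FPKM in 1 control library and in all 3 treated ones, so it too needed the treated libraries to pass. That all 3 tested genes rose thus depends in part on the filter. After detrending all 3 had log2 fold changes of 0.02 to 0.03 and none was called.

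The other 3 Fanconi genes were below the filter. Fanca, of the core complex, stood at 0.310 to 0.511 FPKM in controls and 0.628 to 0.841 in treated cells, and Fancm, the translocase that anchors the core complex, at 0.258 to 0.435 and 0.555 to 0.771. For both, every treated library lay above every control, and neither was called without the filter (limma adjusted p = 0.133 and 0.103). Fancb, on the X chromosome, overlapped between groups, listed at 0.346, 0.789 and 0 FPKM in controls and 0.745, 0.788 and 1.17 in treated cells. Its values above 0 gave no whole numbers of reads with the GENCODE length.

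Among the checkpoint kinases Chek2 and Atm rose and Chek1 was not called. Atm, the kinase of double-stranded breaks, stood at 1.95, 2.31 and 2.00 FPKM in controls and at 2.90, 2.75 and 2.81 in treated cells (1.35-fold, log2 fold change 0.31 ± 0.09 SE, limma adjusted p = 0.0316). Chek2, its effector, stood at 3.80, 3.04 and 2.23 FPKM and at 4.71, 4.83 and 5.19 (1.62-fold, log2 fold change 0.57 ± 0.16 SE, limma adjusted p = 0.024). Neither pair of groups overlapped, and the shift of Atm was close to the median of its decile of genes by level, 0.27. Atr, the kinase of stalled forks, was below the filter at 221, 288 and 135 reads in controls and 919, 669 and 762 in treated cells, and without the filter it was called higher (limma adjusted p = 0.0288). Chek1, the effector of ATR, stood at 1.45, 1.35 and 1.98 FPKM and at 1.99, 2.00 and 1.68, with overlapping groups (log2 fold change 0.16 ± 0.12 SE, limma adjusted p = 0.303). Atm and Chek2 lost their call without the filter, with quantile normalization and without treated 1, 2 or 3. The call of Atm, also lost without control 1, stood in 4 of the 15 alternatives that tested it. The call of Chek2 stood in 8 of 15. The log2 fold change of Atm was -0.10 after detrending on GC content and length alone. After detrending on level as well it was -0.20 for Atm and 0.20 for Chek2, neither called. Without control 3 Chek1 was called higher (0.27, limma adjusted p = 0.042).

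In mismatch repair the abundant gene Msh6 fell, and the scarce genes Msh3 and Pms2 were not called. Msh6, the subunit that recognises base mismatches, stood at 33.1, 25.6 and 40.9 FPKM in controls and at 21.99, 21.4 and 23.3 in treated cells (1.496-fold lower, log2 fold change -0.54 ± 0.18 SE, limma adjusted p = 0.0432). The groups did not overlap, and the decile of genes at its level had a median of -0.51. Under library-size scaling, the log2 fold change of Msh6 was 0.18 and it was not called, and it was not called without control 1 or without any one treated library. Msh3, which recognises longer loops, was below the filter at 0.499 ± 0.0955 and 0.819 ± 0.0464 FPKM (SD, n = 3), with every treated library above every control. Pms2, the endonuclease subunit, stood at 0.868 ± 0.242 and 1.19 ± 0.0373 FPKM (limma adjusted p = 0.131), also with every treated library above every control. After detrending Pms2 was called lower (log2 fold change -0.40, limma adjusted p = 0.032).

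In base excision repair the glycosylase Ogg1 rose and the glycosylase Ung fell. Ogg1 (ENSMUSG00000030271, chromosome 6), the glycosylase that removes 8-oxoguanine, stood at 2.89, 3.35 and 2.40 FPKM in controls and at 6.39, 6.04 and 6.10 in treated cells. Every treated library lay far above the controls, a 2.14-fold rise (log2 fold change 0.89 ± 0.12 SE, limma adjusted p = 0.00165). Of its exon length 10.6% lies over Camk1 on the other strand, which stood at 10.3 and 8.99 FPKM. Ung, which removes uracil from DNA, stood at 5.43, 4.16 and 7.96 FPKM and at 2.22, 2.42 and 2.35, a 2.51-fold fall (log2 fold change -1.003 ± 0.21 SE, limma adjusted p = 0.00748). The genes of similar level had a median log2 fold change of 0.19 for Ogg1 and 0.27 for Ung, so Ung ran against its level. Under library-size scaling the log2 fold change of Ung was -0.42 and it was not called (limma adjusted p = 0.058). Mutyh, which removes adenine paired with 8-oxoguanine, was not called, at 1.16, 0.857 and 1.37 FPKM in controls and 1.37, 0.676 and 1.00 in treated cells. Nthl1, a glycosylase of oxidised pyrimidines, varied more in controls (4.07 to 10.7 FPKM) than in treated cells (6.39 to 7.66) and was not called.

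Of the enzymes that act after the glycosylase, Parp2 rose and the others were not called. Apex1, which cuts at the abasic site, stood at 13.6 ± 1.85 and 15.4 ± 0.566 FPKM (SD, n = 3, limma adjusted p = 0.283); 61.7% of its exon length lies over Pip4p1 on the other strand, which leaves its values uncertain. Apex1 was called higher with quantile normalization (log2 fold change 0.40, limma adjusted p = 0.0191) and after detrending (0.56, limma adjusted p = 0.0225). It was also called higher under library-size scaling (0.87) and without control 3 (0.26, limma adjusted p = 0.0488). Parp1, the main sensor of strand nicks, stood at 14.6, 13.0 and 18.7 FPKM in controls and at 13.9, 13.5 and 13.2 in treated cells. Its groups overlapped (log2 fold change -0.17 ± 0.15 SE, limma adjusted p = 0.376). Under library-size scaling its log2 fold change was 0.53 and it was called higher, beside 0.60 for the median of all genes tested. Parp2, its scarcer relative, rose from 2.43, 2.83 and 2.08 FPKM to 3.89, 3.66 and 3.45 (1.497-fold, log2 fold change 0.44 ± 0.12 SE, limma adjusted p = 0.0192), a call lost without control 1 or any one treated library. Parp2 was also not called with quantile normalization (0.21) or after detrending (0.06). Xrcc1, the scaffold of nick repair, stood at 5.88 ± 1.55 and 6.78 ± 0.397 FPKM, and Tdp1, which frees trapped topoisomerase from DNA, at 1.09 ± 0.432 and 1.42 ± 0.05004. Neither was called (limma adjusted p = 0.38 and 0.254).

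In nucleotide excision repair Xpc and Ddb2 rose, Ddb1 and Xpa fell and 3 of the 7 genes were not called. The shares of 28.6% higher and 28.6% lower stand near the 27.9% and 28.3% of all genes tested. Xpc (ENSMUSG00000030094, chromosome 6), which recognises distorted DNA, stood at 1.58, 1.46 and 1.69 FPKM in controls and at 3.56, 3.21 and 3.18 in treated cells (2.101-fold, log2 fold change 0.74 ± 0.09 SE, limma adjusted p = 0.00131). Ddb2, the subunit that binds ultraviolet lesions, stood at 0.689, 0.980 and 0.811 FPKM and at 1.87, 2.03 and 1.69 (2.25-fold, log2 fold change 0.65 ± 0.10 SE, limma adjusted p = 0.00283). Ddb2 passed the filter only through treated libraries, its decile of level had a median of 0.52, and it was not called with quantile normalization (0.30) or after detrending (0.10). The groups overlapped for neither, although 23.8% of the exon length of Ddb2 lies over Acp2 on the other strand, which stood at 1.99 and 4.16 FPKM. Ddb1, the partner of DDB2 and the adaptor of CUL4 ubiquitin ligases, stood at 288, 275 and 325 FPKM in controls and at 149, 148 and 149.5 in treated cells (1.99-fold lower, log2 fold change -0.98 ± 0.13 SE, limma adjusted p = 0.00134). Ddb1 is the most abundant of the 48 genes, its decile of genes had a median of -0.93, and library-size scaling ended its call (-0.24), as did quantile normalization (0.09) and detrending (-0.14). Ddb2 over Ddb1, per length, went from 0.00240, 0.00356 and 0.00250 in controls to 0.0126, 0.0137 and 0.0113 in treated cells, a log2 difference of 2.17 between genes from opposite ends of the level trend.

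Xpa was the largest fall among the tested members. Xpa (ENSMUSG00000028329, chromosome 4), the scaffold that checks the lesion, stood at 14.8, 11.4 and 26.6 FPKM in controls and at 4.63, 5.02 and 3.99 in treated cells. The controls were wide apart, with control 3 the highest, but all lay above the treated libraries (3.87-fold lower, log2 fold change -1.67 ± 0.29 SE, limma adjusted p = 0.00429). Its log2 fold change was -1.34 without control 3 and -1.01 under library-size scaling, and it was called lower under both. Ercc1, of the nuclease that cuts 5′ of the lesion, stood at 4.396, 6.60 and 3.24 FPKM and at 2.71, 2.22 and 3.10, every treated library below every control (limma adjusted p = 0.0613); without control 3 it was called lower (-0.81, limma adjusted p = 0.01). The TFIIH helicases Ercc2 and Ercc3 were not called, at 2.55 ± 0.771 and 2.02 ± 0.114 FPKM for Ercc2 and 11.9 ± 4.13 and 15.4 ± 0.280 for Ercc3 (SD, n = 3). Every treated library lay above every control for Ercc3, while the groups of Ercc2 overlapped. Of the exon length of Ercc2, 24.6% lies over Gm26852 and 17.8% over Klc3, both on the other strand. Control 3 was the control library farthest from the treated ones for both TFIIH genes, at 3.44 and 7.15 FPKM.

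In end joining the transcripts of Ku80 and of the DNA-PK catalytic subunit rose, and that of Ku70 was not called. Xrcc5 (ENSMUSG00000026187, chromosome 1), which encodes Ku80, stood at 9.18, 8.43 and 10.3 FPKM in controls and at 18.6, 18.5 and 18.0 in treated cells (1.98-fold, log2 fold change 0.92 ± 0.11 SE, limma adjusted p = 0.00104). The decile of genes at its level had a median of -0.27. Xrcc6, which encodes Ku70, stood at 11.6, 9.75 and 10.6 FPKM and at 10.1, 10.2 and 10.2 (log2 fold change -0.06, limma adjusted p = 0.638). The subunits of Ku stood near each other in controls, and Xrcc5 over Xrcc6 went from 0.789, 0.864 and 0.965 to 1.85, 1.82 and 1.76. Under library-size scaling Xrcc6 was called higher, at 0.62, beside 0.60 for the median of all genes and 1.61 for Xrcc5. With the GENCODE length, the values of Xrcc5 gave a whole number of reads in 1 of the 6 libraries, and so its reads are not given.

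Prkdc, the catalytic subunit of DNA-PK, stood at 0.630, 0.452 and 0.760 FPKM in controls and at 1.88, 1.69 and 1.94 in treated cells (2.99-fold, log2 fold change 0.82 ± 0.10 SE, limma adjusted p = 0.00136). The gene is long, and these values rest on 189 to 260 reads in controls and 986 to 1132 in treated cells. It passed the filter only through treated libraries, and after detrending it was not called (0.14). Lig4, the ligase that seals the ends, was below the filter with 10, 14 and 12 reads in controls against 243, 236 and 198 in treated cells, the largest ratio of the list at 11.96-fold. Without the filter Lig4 was called higher (limma adjusted p = 0.00212). Xrcc4, the partner of ligase IV, stood at 1.92, 1.25 and 0.709 FPKM and at 2.07, 1.98 and 2.34, every treated library above every control but not called (limma adjusted p = 0.0821).

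**Figure D3:**
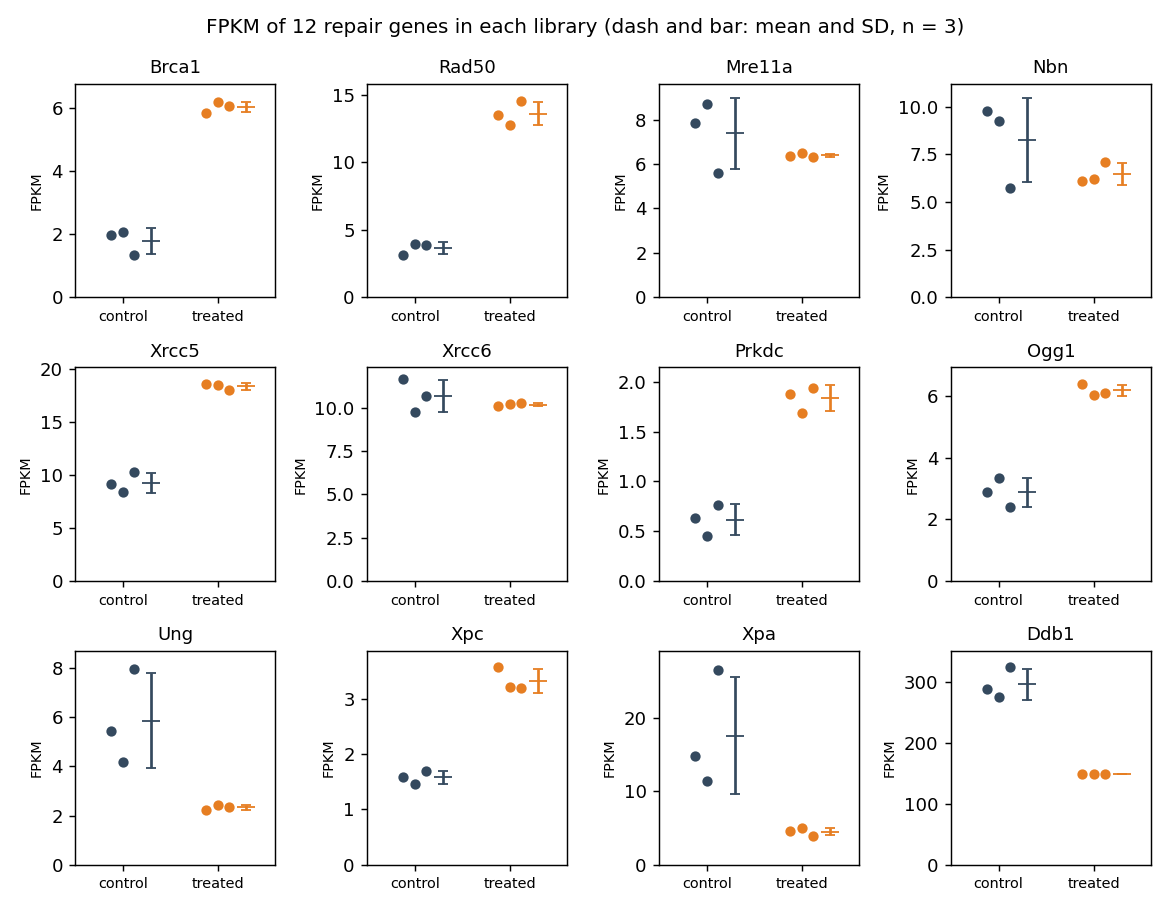
FPKM of 12 repair genes in each of the 3 control (dark) and 3 treated (orange) libraries, each panel on its own linear axis from 0; dashes and bars are means and SD. Treated libraries lie above all controls for Brca1, Rad50, Xrcc5, Prkdc, Ogg1 and Xpc and below them for Ung, Xpa and Ddb1, whereas Mre11a, Nbn and Xrcc6 overlap.

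The direction of a member went with its level, as it did for all genes. Over the tested genes in deciles of mean level, the median log2 fold change went from 0.52 in the lowest to -0.93 in the highest decile. Of the 25 repair genes in the 5 lower deciles 13 rose and 1 fell, beside 41.5% and 15.1% of the 5559 genes there; of the 13 in the 5 upper deciles 2 (Rad50 and Xrcc5) rose and 3 (Msh6, Xpa and Ddb1) fell, beside 14.2% and 41.4%. Against the median of its own decile, 23 of the 38 genes lay above and 15 below. After detrending, an alternative added after the data were seen, 5 of the 15 risen genes (Brca1, Rad50, Ogg1, Xpc and Xrcc5) were still called higher, and 7 of the 15 with quantile normalization. Over the 38 tested genes 8 were called higher and 3 lower with quantile normalization (21.1% and 7.89%), beside 27.2% and 24.5% of all genes tested.

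**Figure D4:**
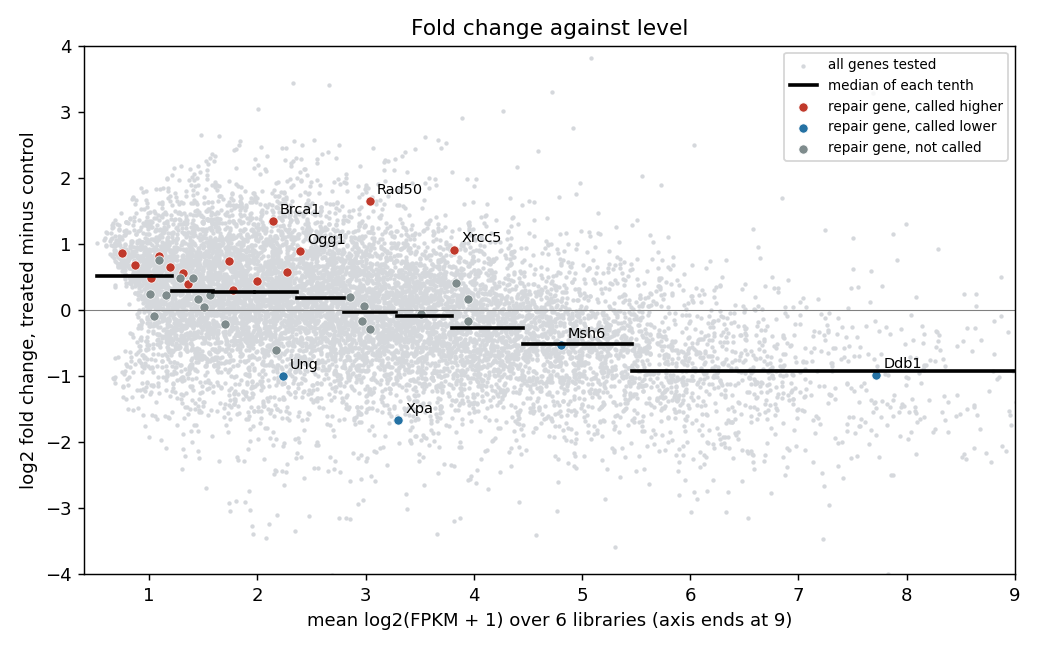
Log2 fold change against mean log2(FPKM + 1) over 6 libraries for all 11118 tested genes (light grey; the axes end at 9 and at -4 and 4), with the median of each decile as a black line. Repair genes are coloured by call; Ddb1 and Msh6 lie close to the line of their level, while Rad50, Xrcc5 and Brca1 lie above it and Xpa and Ung below it.

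A further list of 76 repair genes, with the same roles and none of the 48, was counted the same way. Of these 62 passed the filter, 26 rose and 12 fell (41.9% and 19.4%, beside 27.9% and 28.3% of all genes tested), with a median log2 fold change of 0.28. This balance also changed with the processing. Under library-size scaling 47 were called higher and 3 lower, beside 54.3% and 10.3% of all genes tested. With quantile normalization 21 were called higher and 14 lower, beside 27.2% and 24.5%. After detrending 12 were called higher and 15 lower, with a median of 0.0042, beside 20.2% and 25.4%. Of the 62, 6 (Eme1, Rmi1, Slx4, Hus1, Ercc6 and Uvssa) passed only through treated libraries and so could enter the test only by being higher there. The gene named per role and direction is the called one with the smallest p. Genes of the checkpoint list rose for 6 of 8 and fell for 0, among them Rad1 of the 9-1-1 clamp (1.13 ± 0.097 to 2.54 ± 0.0878 FPKM, limma adjusted p = 0.00107). Break sensing genes rose for 3 of 5 tested and fell for 0, among them Mdc1, the adaptor that reads phosphorylated H2AX (1.23 ± 0.332 to 6.71 ± 0.176 FPKM, 5.47-fold). Recombination genes rose for 7 of 14 and fell for 3; Eme1, of the nuclease MUS81-EME1, was 4.73-fold higher and Rad51d, a recombinase paralogue, 2.20-fold lower. In the Fanconi list 1 of 5 rose, Slx4, the nuclease scaffold (0.561 ± 0.0678 to 3.73 ± 0.0370 FPKM, 6.64-fold), and 2 fell, Ube2t, the E2 enzyme of the pathway (1.75-fold lower), and Fance, of the core complex (2.69-fold lower).

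Base excision genes of that list rose for 4 and fell for 3 of 13 (30.8% and 23.1%), near the 27.9% and 28.3% of all genes tested. Lig3, the ligase partner of XRCC1, was 1.62-fold higher and Apex2, a relative of Apex1, 2.11-fold lower. Nucleotide excision genes rose for 5 and fell for 2 of 13 (38.5% and 15.4%). Uvssa, of transcription-coupled repair, was 3.50-fold higher and Cetn2, the centrin bound to XPC, 3.29-fold lower. In end joining 0 of only 4 tested genes rose and 2 fell (0% and 50%), among them Paxx, a Ku-binding factor (8.60 ± 1.32 to 2.81 ± 0.393 FPKM, 3.06-fold lower). The mismatch genes Mlh3 and Pms1 were below the filter. For both, every treated library lay above every control, beside 24.4% of the 27756 genes tested without the filter. Without the filter 1 of the 2 was called higher, beside 14.7% of those genes. Under library-size scaling Apex2, Rad51d and Ube2t were not called, with log2 fold changes of -0.23, -0.33 and -0.03, while Paxx and Cetn2 were called lower (-0.72 and -0.83).

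Proliferation genes are given because many recombination genes follow the cell cycle. Of 19 such genes 4 rose (Mki67, Pcna, Ccne2 and E2f1), 5 fell (Top2a, Ccna2, Ccnb1, Ccne1 and Cdt1) and 10 were not called, with a median log2 fold change of 0.02. The shares of 21.1% and 26.3% stand near the 27.9% and 28.3% of all genes tested. Mki67, a marker of cycling cells, went from 4.89 ± 1.79 to 16.2 ± 1.27 FPKM, and Ccnb1, the mitotic cyclin, from 22.3 ± 2.51 to 15.5 ± 0.741. The summed level of the list was 377 to 436 FPKM in controls and 353 to 365 in treated cells, and its part in the rise of the recombination genes was not tested. The falls of Top2a, Ccna2, Ccnb1 and Cdt1 turned to log2 fold changes of 0.13 to 0.30, none called, under library-size scaling.

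Several repair genes start head to head with another gene. In GENCODE M21, 23 pairs of a member and a protein-coding neighbour on the other strand had gene starts within 1000 bp of each other. Of the 7 pairs whose member rose, the neighbour was tested in 6; it rose in 1 and was not called in 5, where 27.9% of all genes tested rose and 28.3% fell. Atm rose with Npat, a regulator of histone transcription (2.75 ± 1.20 to 5.94 ± 0.444 FPKM, limma adjusted p = 0.0182), 307 bp away. Prkdc, by contrast, rose while Mcm4, a subunit of the replicative helicase 466 bp away, stood at 23.6 ± 4.53 and 23.4 ± 0.446 FPKM. Brca1 rose while Nbr1, an autophagy receptor 194 bp away, stood at 44.8 ± 4.76 and 47.9 ± 1.16 FPKM, and Xpc rose while Lsm3, an RNA-binding protein 40 bp away, stood at 8.26 ± 2.20 and 7.30 ± 0.926. Whether the members of a pair differ from each other was not tested.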

How the data were processed

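RNA was measured in 3 control and 3 treated samples, grouped by the treatment label. Polyadenylated RNA (3 µg input) was made into libraries and read as paired ends of 150 bp, per the labels' protocols. The authors deposited FPKM, per the file headers; the sources used here name no aligner, counter, build, annotation or strand setting. Reads were worked back from the FPKM with GENCODE M21 exon lengths: 92.3% to 93.4% of values under 200 reads came out whole within 0.02. Floors cover counting error only, since reads copied by PCR and lacking molecular identifiers do not count molecules. Symbols, lengths, overlaps and neighbours came from GENCODE M21 (GRCm38), and the authors may have used another annotation; genes overlapping on the other strand are uncertain. limma 3.58.1 in R 4.3.3 was run with a trended prior on log2(FPKM + 1), group as the only term; such fold changes understate those of scarce genes. The procedure was tested on simulated data with the same spread in both groups. That test does not cover the wider spread of controls seen here. Members and lists were chosen with earlier results of these data known. Members given in full are, in each pathway, up to 2 risen and 2 fallen called genes with the smallest p and groups that did not overlap, with Brca1, Atm, Chek1, Parp1, Ogg1, Xpc, Ddb2 and Prkdc; of the other repair genes, the called gene with the smallest p per role and direction; any other was named after its values were seen. Alternatives covered the filter, the pseudocount, the scaling, GC content and length, sample weights, a replicate block and leaving out each sample.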

Additional observations from a re-analysis of the deposited data

How the results depend on the processing

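Calls over all genes numbered 6240 (49.7% of them higher), and 4419 to 7412 with 1 sample left out. The 15 members called higher became 10 to 19, the 4 called lower 3 to 7, their median of 0.27 became 0.27 to 0.37, and the 38 other repair genes called became 26 to 42. With a minimum of 5 FPKM, which tested 15 members, 3901 genes were called (35.5% higher), 4 members higher and 3 lower, with a median of 0.0575, and 17 other repair genes. Under library-size scaling, which moved the median of all genes to 0.60 and the share of higher calls to 84.0%, 29 members were called higher and 1 lower, with a median of 0.85. Parp1, Xrcc6 and Msh6 then had log2 fold changes of 0.53, 0.62 and 0.18. With quantile normalization 8 members were called higher and 3 lower, and Ddb1 stood at 0.0939. After detrending on GC content and length alone Atm stood at -0.10. After detrending on GC content, length and level, added after the data were seen, 6 members were called higher and 6 lower and the median was -0.0399; Bard1, Rad54b, Atm, Xrcc2 and Pms2 stood at -0.0902, -0.15, -0.20, -0.37 and -0.40. With no filter and without control 3, also added later, 17 members were called higher and 6 lower. The cause of these shifts was not tested. The replicate numbers do not pair the samples: deviations of same-numbered control and treated samples correlated at -0.05, -0.11 and -0.14 across genes, and no sample correlated best with its own number. With the replicate block 10 members were called higher and 3 lower. For members under 50 reads in a control library (Brca2, Palb2, Exo1, Lig4, Rad54b, Fanci, Brip1, Xrcc3 and Fancb) counting error limits the fold. Control 3 had 44, 34 and 20 reads of Rad54b, Fanci and Brip1, which were called higher. With the alternatives for single members, 479 of 585 values kept their side of the threshold without reversing a call. Changes of direction between values that were both uncalled are counted among these 479.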

Other observations

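Translesion polymerases, which copy past unrepaired lesions, were looked at after the data were seen. Of 6 such genes tested, 5 rose and 1 fell, where 27.9% and 28.3% of all genes tested did. Without the filter 2 of the 5 (Polh and Rev3l) were called higher, and after detrending 1 (Polh). Polh, the polymerase that bypasses ultraviolet dimers, rose from 4.65 ± 0.116 to 8.49 ± 0.178 FPKM (SD, n = 3, log2 fold change 0.75, limma adjusted p = 0.00111). Its log2 fold change was 0.53 after detrending. Rev3l, the catalytic subunit of polymerase zeta, rose from 0.567 ± 0.0852 to 1.57 ± 0.0753 FPKM but passed the filter only through treated libraries, while Mad2l2, its accessory subunit, fell from 16.5 ± 4.50 to 8.00 ± 0.707 (log2 fold change -0.93, and -0.25 and not called under library-size scaling). Poli, Polk and Rev1 rose by log2 fold changes of 0.37, 0.59 and 0.42, and those of Poli, Polk, Rev1 and Rev3l were 0.0059, 0.22, -0.04 and -0.02 after detrending.

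Enzymes of direct reversal and of the nucleotide pool were not called. Mgmt, which removes alkyl groups from guanine, was at or near 0 in all 6 libraries. Nudt1, which clears oxidised dGTP, measured 3.58 ± 3.16 FPKM (SD, n = 3) in control and 2.45 ± 0.703 in treated libraries (limma adjusted p = 0.714). Usp1 and Wdr48, which together remove ubiquitin from FANCD2, both fell, from 19.9 ± 2.80 to 14.3 ± 0.739 and from 5.91 ± 0.209 to 4.25 ± 0.261 FPKM, with log2 fold changes of 0.26 and 0.23 and no call under library-size scaling. After detrending both were called lower (-0.39 and -0.72, limma adjusted p = 0.0446 and 0.00175). With quantile normalization Wdr48 was called lower (-0.53) and Usp1 was not called (-0.16).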
